A study of Mus musculus with 8 samples.

Results

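The cardiac myosin heavy and light chain genes were examined in hearts of swimming-trained and sedentary mice. The members were 9 genes of the 18137 genes in the deposited expression table. They are the heavy chain genes Myh6, Myh7 and Myh7b, the light chain genes Myl2, Myl3, Myl4 and Myl7, the binding protein gene Mybpc3 and the kinase gene Mylk3. Each transcript of the table was assigned to a gene by its Ensembl identifier in GENCODE M21, and FPKM values, that is, fragments scaled by the length of the transcript and the size of the library, were summed over the transcripts of a gene. The table held 38 of the 52 annotated transcripts of these genes, among 51169 transcripts in all.

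Both groups consisted of hearts of wild-type mice, labelled WT, in a study of aging hearts. The 4 libraries of the swimming group came from mice labelled as swimming, and the 4 libraries of the sedentary group from mice labelled as sedentary. No ages, strain, sex or length of training were given in the labels used here. The labels call the samples biological replicates without saying that each was a separate mouse, so the p-values measure the spread between these samples. Total RNA was depleted of ribosomal RNA and copied with random primers before sequencing.

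Myosin is the motor of the thick filament of the sarcomere. Each molecule pairs heavy chains, which hydrolyse ATP and pull on actin, with essential and regulatory light chains that bind the neck of each head. In the adult mouse ventricle the fast heavy chain alpha-MHC, encoded by Myh6, predominates over the slow beta-MHC, encoded by Myh7, and a shift toward beta-MHC is a classical sign of pressure overload and heart failure in rodents.

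The FPKM totals of the libraries lay between 210413 and 235461. Absolute read depth is unknown. Relative depth, estimated from the lowest values of the table, was between 0.872 and 1.00 in 7 libraries and 1.64 in swimming replicate 2. Heart muscle markers were abundant in every library, with sums over 14 cardiomyocyte and ventricular genes of 8203 to 8718 FPKM in swimming hearts and 5895 to 8401 FPKM in sedentary hearts. Sedentary replicate 4 stood apart in liver and fat markers. In it the liver gene Alb reached 23.2 FPKM, against at most 0.0865 FPKM in each of the other libraries, and all 8 liver markers were highest there. The fat genes Cfd and Adipoq had 12.0 and 2.80 FPKM in it, against at most 0.668 and 0.139 FPKM in each of the other libraries. For Myh7, Mybpc3 and Mylk3-203, values without this library are also given. The part of the other tissues in the results was not tested.

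The 2 main heavy chain genes are tandem neighbours on mouse chromosome 14 and resemble each other closely, which bears on every Myh7 value. Myh6 lies at chr14:54941921-54966927 and Myh7 at chr14:54970684-54994626, both on the minus strand of mm10. The coding sequences of Myh7-201 (5805 bases) and Myh6-205 (5814 bases) were identical at 91.7% of aligned positions. Of the 50-base words of Myh7-201, 23.9% also occurred in Myh6-205, and of its 100-base words 12.0% did. A read that falls within such a word cannot be placed on one gene by its sequence alone. The longest identical run had 245 bases. It covered exons 32 and 33 of Myh7-201 (chr14:54975234-54975347 and chr14:54974947-54975077) and exons 30 and 31 of Myh6-205 (chr14:54948612-54948725 and chr14:54948327-54948457). It is shown once, as read on the coding strand.
Run shared by Myh7-201 and Myh6-205: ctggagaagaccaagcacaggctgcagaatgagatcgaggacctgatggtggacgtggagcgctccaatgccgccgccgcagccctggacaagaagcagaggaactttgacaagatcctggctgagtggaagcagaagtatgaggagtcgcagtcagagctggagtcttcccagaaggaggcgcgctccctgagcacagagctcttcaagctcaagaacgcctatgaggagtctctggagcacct

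The stretch of 90 coding bases in which the genes were least alike shows where reads do tell them apart. It lay in exon 27 of Myh7-201 at chr14:54980322-54980411 and in exon 25 of Myh6-205 at chr14:54952247-54952336. Capitals mark the 30 positions that differ, and the other 60 are identical.
Myh7-201: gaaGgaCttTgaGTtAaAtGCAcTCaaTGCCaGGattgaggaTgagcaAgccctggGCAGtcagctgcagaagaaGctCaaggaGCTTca
Myh6-205: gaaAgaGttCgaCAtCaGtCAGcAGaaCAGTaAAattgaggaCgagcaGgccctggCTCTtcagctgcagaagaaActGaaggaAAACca

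The light chain pairs were less alike than the heavy chains. The atrial essential light chain transcript Myl4-202 (579 coding bases) matched the ventricular Myl3-201 (612 coding bases) at 77.0% of aligned positions, with a longest shared run of 29 bases. The atrial regulatory light chain transcript Myl7-201 (525 coding bases) matched the ventricular Myl2-201 (498 coding bases) at 64.5%, with a longest shared run of 16 bases. Neither pair shared a 50-base word.

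Each of the 3 heavy chain genes carries a microRNA in an intron, a family known for its part in the control of myosin gene use in mouse heart and skeletal muscle. They are shown because they tie the 3 host genes together, and the table measured the hosts and not the mature microRNAs. The sequences are from RefSeq on GRCm38.p6, the assembly that mm10 is made from, and capitals mark the seed, bases 2 to 8.
miR-208a-3p, intron 29 of Myh6-205, chr14:54949072-54949093, minus strand: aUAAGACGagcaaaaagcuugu
miR-208b-3p, intron 31 of Myh7-201, chr14:54975710-54975731, minus strand: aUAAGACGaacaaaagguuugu
miR-499-5p, intron 19 of Myh7b-201, chr2:155622893-155622913, plus strand: uUAAGACUugcagugauguuu
The miR-208a-3p and miR-208b-3p seeds were identical. With positions counted from the 5′ end and the base of miR-208a-3p given first, miR-208b-3p differed by G10A, A16G and C18U, and the seed of miR-499-5p differed by G8U.

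No member differed between swimming and sedentary hearts past the threshold. Of the 9 member genes, 7 reached the filter of a mean of 0.5 FPKM and were tested with limma on log2(FPKM + 0.5). None of the 7 had an adjusted p below 0.05, against 0.0171% of the 11674 genes tested, which were 2 genes. None had an unadjusted p below 0.05, against 7.37% of all genes, and none had swimming values clear of all sedentary values, against 4.82% of all genes. At these background rates a count of 0 among 7 is near what the whole table gave. The 7 fold changes were positive in 3 genes and negative in 4, with a median of -0.04, beside 0.03 over all genes tested. Among single transcripts, 28 of the 38 were tested. None of these passed the threshold, which 0.0531% of the 22614 transcripts tested did, and none had an unadjusted p below 0.05, which 5.51% of them did. Heart tissue holds several cell types, and fewer cells of a type cannot be told apart from less RNA per cell here.

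The members covered a wide range of levels. Over all 8 libraries Myl3 averaged 2292 FPKM, Myl2 1844 FPKM, Myh6 508 FPKM and Mylk3 139 FPKM. The ranges of these 4 genes did not overlap, and their order was the same in all 8 libraries. Below them came Mybpc3 with a mean of 17.1 FPKM, Myh7 with 10.7 FPKM, Myl4 with 1.73 FPKM and Myh7b with 0.383 FPKM. In this lower group each range overlapped the next one, and Mybpc3 exceeded Myh7 in 3 of 8 libraries only. Myl7 stood last, listed at 0 or near 0 throughout.

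**Figure D1:**
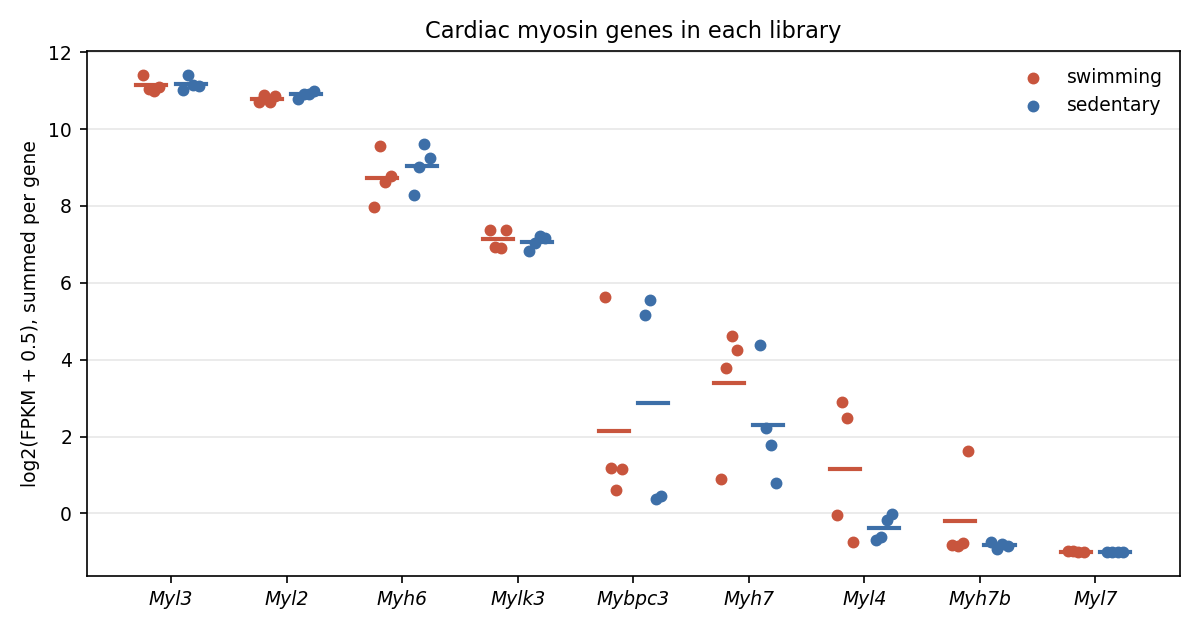
Level of each member gene as log2(FPKM + 0.5) on the vertical axis, genes ordered by mean level, with 1 point per library (4 swimming on the left, 4 sedentary on the right of each gene) and a line at the group mean. Mybpc3 and Myh7 spread widely in both groups, Myl4 and Myh7b do so in swimming hearts, and Myl3, Myl2 and Mylk3 lie close together.

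Myh6, the fast alpha heavy chain, was the dominant heavy chain gene in every library. It had 251.8, 760.0, 392.0 and 439.2 FPKM in swimming replicates 1 to 4, against 311.0, 517.1, 782.5 and 607.2 FPKM in sedentary replicates 1 to 4. Its lowest value was in swimming replicate 1 and its highest in sedentary replicate 3, and the groups overlapped broadly. Myh6 averaged 461 ± 215 FPKM in swimming hearts and 554 ± 196 FPKM in sedentary hearts (SD, n = 4 each). Its log2 fold change was -0.30 (SE 0.379, 95% interval -1.18 to 0.57, limma adjusted p = 0.869). It was -0.05 without swimming replicate 1, -0.58 without swimming replicate 2, -0.56 without sedentary replicate 1 and -0.11 without sedentary replicate 3.

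Myh7, the slow beta heavy chain, varied 19.5-fold among the libraries. It had 1.36, 13.2, 24.1 and 18.7 FPKM in swimming replicates 1 to 4, against 20.3, 4.16, 2.95 and 1.23 FPKM in sedentary replicates 1 to 4. In 3 swimming libraries it was above 13 FPKM, and so it was in sedentary replicate 1, whereas swimming replicate 1 was close to the lowest sedentary library. Its mean was 14.3 ± 9.72 FPKM in swimming hearts and 7.15 ± 8.82 FPKM in sedentary hearts (SD, n = 4 each). The log2 fold change was 1.09 (SE 0.996, 95% interval -1.21 to 3.40, limma adjusted p = 0.817). Without sedentary replicate 4, the library with liver transcripts, it was 0.59, and without swimming replicate 1 it was 1.92. The 245-base run and the other shared words leave the share of Myh7 reads that could also match Myh6 unmeasured.

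The Myh7 to Myh6 ratio, the usual summary of heavy chain use, is free of library scaling. Myh7 amounted to 0.539%, 1.73%, 6.14% and 4.26% of Myh6 in swimming replicates 1 to 4, against 6.51%, 0.805%, 0.377% and 0.203% in sedentary replicates 1 to 4. Myh6 thus exceeded Myh7 by more than 10-fold in each of the 8 libraries, and the highest and the lowest percentages were both in sedentary hearts. On the log2 scale, with 0.5 FPKM added to each gene, the ratio averaged -5.35 ± 1.38 in swimming hearts and -6.75 ± 2.01 in sedentary hearts (SD, n = 4 each). The difference of 1.395 had p = 0.314 in a two-sided exact permutation test over the 70 assignments of the libraries, and p = 0.377 after Benjamini-Hochberg adjustment over the 6 ratios tested. The smallest p that 4 libraries against 4 allow is 0.0286. Without sedentary replicate 1 the difference was 2.34, and without sedentary replicate 4 it was 0.83.

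**Figure D2:**
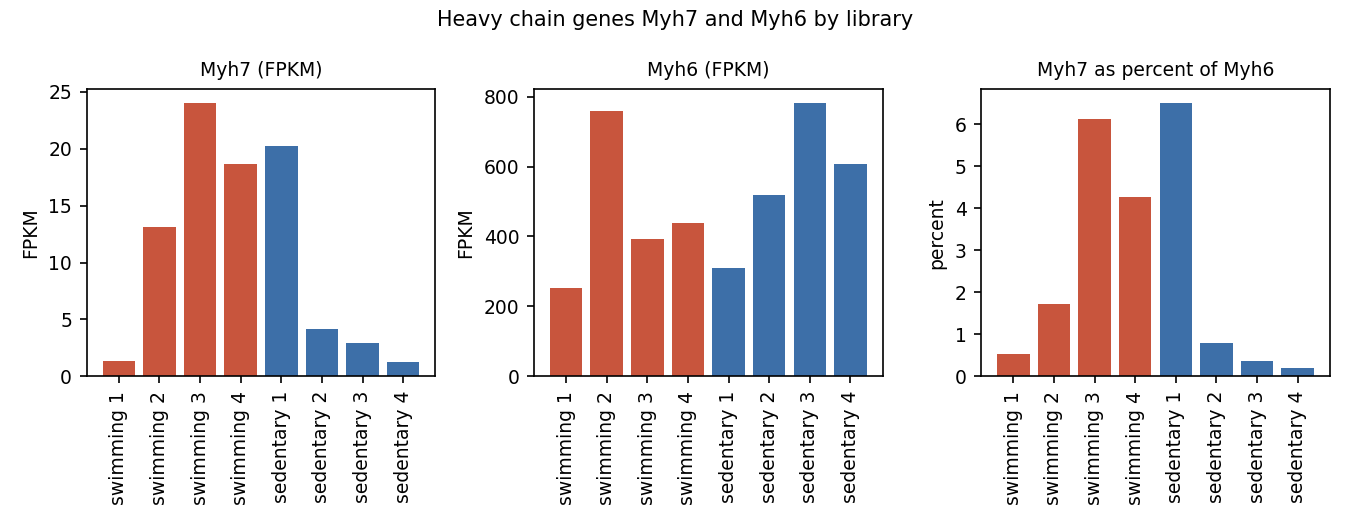
Myh7 in FPKM (left), Myh6 in FPKM (middle) and Myh7 as a percentage of Myh6 (right), with 1 bar per library, swimming in red and sedentary in blue. Swimming replicates 2 to 4 and sedentary replicate 1 stand above the others in Myh7, and the percentage stays under 7 in all 8 libraries.

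Myh7b encodes another sarcomeric heavy chain of which little protein is made in mammalian heart, while its transcript carries miR-499. The gene lies at chr2:155611212-155634307 on the plus strand. It had 0.0701, 0.0507, 0.0830 and 2.61 FPKM in swimming replicates 1 to 4, against 0.0915, 0.0277, 0.0761 and 0.0572 FPKM in sedentary replicates 1 to 4. Only swimming replicate 4 was above 0.1 FPKM. With a mean below 0.5 FPKM the gene was not tested across genes. The log2 ratio of Myh7b to Myh6 differed by 0.93 between swimming and sedentary hearts (exact permutation p = 0.314, adjusted p = 0.377), and by 0.33 without swimming replicate 4.

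The heavy chain transcripts show where the Myh6 and Myh7 sums came from. Myh6-205 and Myh6-201 encode the same 5814 coding bases in 39 exons and differ outside the coding sequence. Myh6-205 had 128, 665, 279 and 308 FPKM in swimming replicates 1 to 4, against 219, 403, 581 and 452 FPKM in sedentary replicates 1 to 4. It followed the gene sum, with its lowest value again in swimming replicate 1.

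Myh6-201 was far steadier. It had 62.3, 51.4, 60.4 and 59.4 FPKM in swimming replicates 1 to 4, against 47.1, 51.7, 48.3 and 56.6 FPKM in sedentary replicates 1 to 4. In 3 of the 4 swimming libraries it was above every sedentary library, and swimming replicate 2 lay among the sedentary values. Its log2 fold change was 0.19 (SE 0.083, limma adjusted p = 0.877), beside -0.41 (SE 0.511, adjusted p = 0.907) for Myh6-205, which was -0.02 without swimming replicate 1 and -0.81 without swimming replicate 2. The share of Myh6 carried by Myh6-205 was 50.9%, 87.5%, 71.1% and 70.2% in swimming hearts and 70.5%, 77.9%, 74.2% and 74.5% in sedentary hearts. The shares in swimming hearts lay on both sides of the sedentary ones, with means of 69.9% ± 15.0 and 74.3% ± 3.04 (SD, n = 4 each, swimming and sedentary; exact permutation p = 0.629, adjusted p = 0.943 over 5 genes).

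Several short Myh6 models, annotated with incomplete coding sequences, took up the rest. Myh6-207, a 542-base model of the 3′ end, averaged 26.7 ± 7.53 FPKM in swimming hearts and 49.0 ± 22.6 FPKM in sedentary hearts (SD, n = 4 each), a log2 difference of -0.78 (limma adjusted p = 0.877). Myh6-202, a 376-base model of the 5′ end, had 83.5 FPKM in sedentary replicate 3 and 16.5 to 30.6 FPKM in the other 7 libraries. Summed over complete models only, Myh6 averaged 403 ± 223 FPKM in swimming hearts and 465 ± 151 FPKM in sedentary hearts, and these models held 85.5% of the gene over all libraries.

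For Myh7, the complete models Myh7-201 and Myh7-204, each with 41 exons and 5805 coding bases, held 82.2% of the gene. Myh7-201 had 4.9e-05, 5.30, 18.6 and 15.4 FPKM in swimming replicates 1 to 4, against 15.2, 2.58, 1.58 and 0.0191 FPKM in sedentary replicates 1 to 4. It was practically missing from swimming replicate 1 and sedentary replicate 4, the libraries with the least Myh7. The 451-base model Myh7-208 stayed between 0.449 and 1.31 FPKM in all 8 libraries and made up most of Myh7 in the 2 with the least of it. Myh7-201 carried 50.02% ± 38.3 of Myh7 in swimming hearts and 48.0% ± 32.2 in sedentary hearts (SD, n = 4 each; exact permutation p = 0.886, adjusted p = 0.943). The difference in this share, 2.01 percentage points, was -13.5 without sedentary replicate 4. Between complete models, Myh7-204 exceeded Myh7-201 in swimming replicates 1 and 2 and in sedentary replicate 4.

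**Figure D3:**
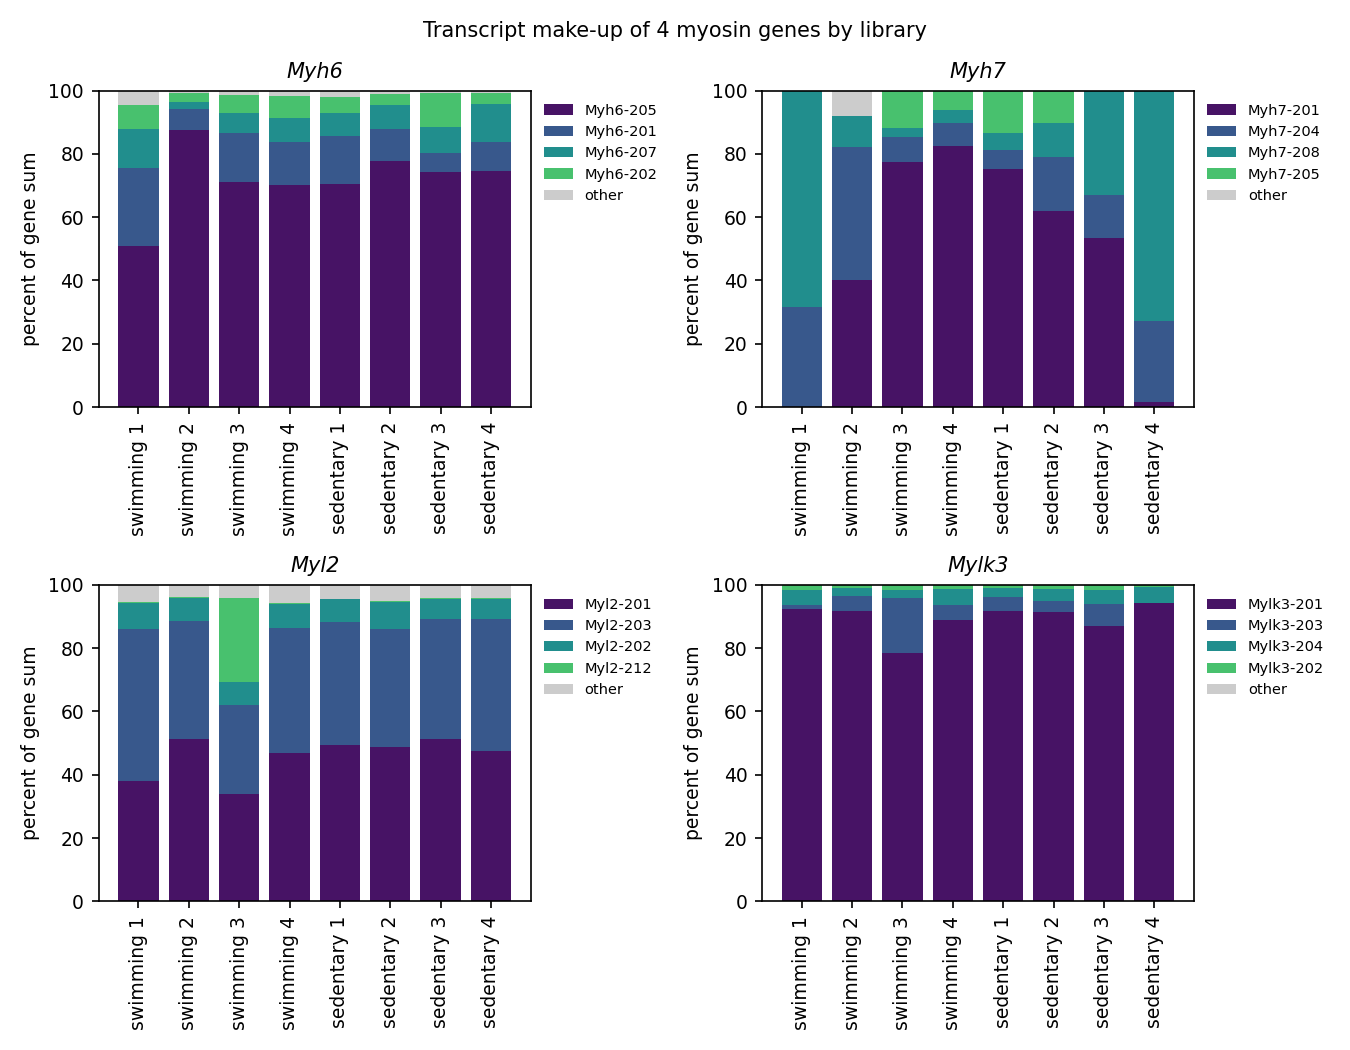
Share of each gene's FPKM sum held by its 4 most abundant transcripts and by all others, in percent, with 1 stacked bar per library (swimming left, sedentary right). The make-up of Myh7 changes from library to library, and Myl2-212 appears as a large share in swimming replicate 3 only.

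Myl2, the ventricular regulatory light chain, was among the steadiest members. The gene lies at chr5:122100951-122113472 on the plus strand. It had 1667, 1903, 1657 and 1849 FPKM in swimming replicates 1 to 4, against 1768, 1939, 1942 and 2026 FPKM in sedentary replicates 1 to 4. Swimming replicates 1 and 3 were below every sedentary library, and the other 2 swimming libraries lay within the sedentary range. Myl2 averaged 1769 ± 126 FPKM in swimming hearts and 1919 ± 108 FPKM in sedentary hearts (SD, n = 4 each). The log2 fold change was -0.12 (SE 0.074, 95% interval -0.29 to 0.05, limma adjusted p = 0.749), so that a fall by more than 0.29 log2 units lies outside the interval.

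The 2 lowest Myl2 sums, in swimming replicates 1 and 3, went with the 2 lowest values of Myl2-201. Myl2-201 had 632, 978, 560 and 864 FPKM in swimming replicates 1 to 4, against 875, 943, 993 and 962 FPKM in sedentary replicates 1 to 4. In 3 of the 4 swimming libraries it was below all sedentary libraries, and in swimming replicate 2 it was not (log2 fold change -0.35, SE 0.175, limma adjusted p = 0.877). Myl2-203, a model of the same coding length whose last exon lies farther downstream (chr5:122113149-122113472, against chr5:122106671-122106854 in Myl2-201), had 804, 705, 470 and 732 FPKM in swimming hearts and 687, 723, 738 and 843 FPKM in sedentary hearts. Its lowest value was in swimming replicate 3, and its fold change of -0.17 (limma adjusted p = 0.882) turned to 0.11 under quantile normalization. Myl2-201 carried 42.5% ± 8.05 of the gene in swimming hearts and 49.2% ± 1.55 in sedentary hearts (SD, n = 4 each; exact permutation p = 0.229, adjusted p = 0.943).

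Swimming replicate 3 differed from all other libraries in Myl2-212, a 433-base model with an incomplete coding sequence. This transcript had 437.5 FPKM there and between 2.75 and 3.93 FPKM in the other 7 libraries. In the same library Myl2-201 and Myl2-203 had their lowest values. An assembled transcript without a gene name, TCONS_00018463, was listed at 0 in swimming replicate 3. It had 247, 284 and 439 FPKM in swimming replicates 1, 2 and 4, and 136, 478, 526 and 553 FPKM in sedentary replicates 1 to 4. This pair was chosen after its values were seen. The table does not say which gene an assembled transcript belongs to, and whether TCONS_00018463 carries Myl2 reads was not tested. On complete models only, Myl2 was 1149 FPKM in swimming replicate 3 and 1574 to 1936 FPKM in the other 7 libraries.

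Myl3, the ventricular essential light chain and the most abundant member, lies at chr9:110741861-110769798 on the plus strand. It had 2723, 2115, 2033 and 2187 FPKM in swimming replicates 1 to 4, against 2069, 2735, 2257 and 2216 FPKM in sedentary replicates 1 to 4. One library of each group, swimming replicate 1 and sedentary replicate 2, stood above the remaining 6. Myl3 averaged 2265 ± 312 FPKM in swimming hearts and 2319 ± 289 FPKM in sedentary hearts (SD, n = 4 each), a log2 difference of -0.04 (SE 0.122, 95% interval -0.32 to 0.25, limma adjusted p = 0.957). The sign of this small difference turned to 0.02 when libraries were scaled to an equal FPKM total. Myl3-201 (7 exons, 612 coding bases) carried 98.8% of the gene in both swimming and sedentary hearts.

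Myl4, the atrial and embryonic essential light chain, lies at chr11:104550663-104595753 on the plus strand and was present at low levels. It had 0.471, 6.96, 5.13 and 0.101 FPKM in swimming replicates 1 to 4, against 0.122, 0.155, 0.384 and 0.489 FPKM in sedentary replicates 1 to 4. Swimming replicates 2 and 3 were above 5 FPKM and the other 6 libraries under 0.5 FPKM, among them the other 2 swimming libraries. The means were 3.17 ± 3.41 FPKM in swimming hearts and 0.288 ± 0.178 FPKM in sedentary hearts (SD, n = 4 each). The log2 fold change of 1.53 had the lowest adjusted p among the members (SE 0.808, 95% interval -0.34 to 3.40, limma adjusted p = 0.705). It was 0.94 without swimming replicate 2, and between 1.08 and 2.16 with any other library left out. Myl4-202 held 96.7% of it.

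Set against its ventricular counterpart, Myl4 made up 0.0173%, 0.329%, 0.252% and 0.00462% of Myl3 in swimming replicates 1 to 4, against 0.00587%, 0.00566%, 0.0170% and 0.0221% in sedentary replicates 1 to 4. Myl3 exceeded Myl4 by more than 100-fold in all 8 libraries. The log2 difference of 1.56 had an exact permutation p of 0.286 and an adjusted p of 0.377, and it was 0.95 without swimming replicate 2.

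Myl7, the atrial regulatory light chain, lies at chr11:5896637-5898782 on the minus strand. Its single transcript was listed at 0.00291, 0.00401, 0.00194 and 0 FPKM in swimming replicates 1 to 4 and at 0 in each of the 4 sedentary libraries. Its log2 ratio to Myl2 differed by 0.12 (exact permutation p = 0.143, adjusted p = 0.377), which with 0.5 FPKM added to both genes mirrors the difference in Myl2.

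Atrial markers bear on the atrial light chains and were read from a list of 14 genes. All 14 were in the table, and their sum was 285.7 to 381.6 FPKM in swimming hearts and 242.2 to 362.8 FPKM in sedentary hearts. None of the 11 tested passed the threshold in limma and 0 had an unadjusted p below 0.05, 7 with a positive and 4 with a negative fold change (median 0.08). Nppa, the atrial natriuretic peptide, had 119.8, 71.3, 60.4 and 125.1 FPKM in swimming replicates 1 to 4, against 105.0, 26.9, 41.6 and 61.6 FPKM in sedentary replicates 1 to 4. Its highest values were in swimming replicates 1 and 4, the 2 swimming libraries with the least Myl4.

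Sln, sarcolipin, which inhibits the calcium pump and is atrial in mouse heart, was highest where Myl4 was highest. It had 0.169, 1.55, 0.769 and 0.268 FPKM in swimming replicates 1 to 4, against 0.556, 0.0237, 0.0458 and 0.0447 FPKM in sedentary replicates 1 to 4. Mybphl, a myosin-binding protein of the atrium, had its maximum of 0.588 FPKM in swimming replicate 2. In swimming replicate 3, the other library with high Myl4, Mybphl had its lowest swimming value, 0.157 FPKM, below the 0.251 FPKM of sedentary replicate 1. Bmp10, an atrial ligand, did not exceed 0.186 FPKM in any library. Dkk3, a secreted protein gene of the same list, had 2.07, 4.14, 2.87 and 2.15 FPKM in swimming hearts and 2.80, 1.08, 1.35 and 1.51 FPKM in sedentary hearts (limma adjusted p = 0.674). Kcnj3, a potassium channel gene with the lowest p of the list, was one of the 4 with a negative fold change. It had 1.08, 1.67, 1.61 and 1.60 FPKM in swimming replicates 1 to 4, against 1.97, 1.95, 2.29 and 1.61 FPKM in sedentary replicates 1 to 4 (log2 fold change -0.31, limma adjusted p = 0.671). Pam, an abundant gene of the list, had a log2 fold change of 0.01 (limma adjusted p = 0.989). The part of atrial tissue in the Myl4 values was not tested.

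Skeletal muscle would bring Myh7 with slow fibres, and 15 markers of it were read. Their sum was 17.7 to 24.4 FPKM in swimming hearts and 19.4 to 27.2 FPKM in sedentary hearts, with 5 of the 15 under 0.1 FPKM in every library. The fast skeletal heavy chains Myh1, Myh2 and Myh4 did not exceed 0.105 FPKM in any library, and the slow troponin I gene Tnni1 did not exceed 0.0764 FPKM. Each of these heavy chains was highest in sedentary replicate 4, whereas the sum over all 15 markers was highest in sedentary replicate 1. The slow troponin T gene Tnnt1 had 1.60 to 2.83 FPKM in swimming hearts and 1.80 to 3.16 FPKM in sedentary hearts. The part of skeletal muscle in the Myh7 values was not tested. Of the 4 markers that reached the filter, none passed the threshold in limma, and 1 had a positive and 3 a negative fold change (median -0.24). The positive one was Mybpc2, the fast skeletal relative of Mybpc3. Mybpc2 had 4.99, 8.64, 8.50 and 5.86 FPKM in swimming hearts and 9.33, 4.34, 3.45 and 2.91 FPKM in sedentary hearts (log2 fold change 0.54, limma adjusted p = 0.752). The negative ones were Casq1 (log2 fold change -0.37, limma adjusted p = 0.776), Myl1 (-0.28, adjusted p = 0.666) and Tnnt1 (-0.21, adjusted p = 0.82).

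Mybpc3 encodes cardiac myosin-binding protein C, which bridges thick and thin filaments and slows cross-bridge cycling. Its listed values were either high or low, depending on the library. The gene lies at chr2:91118144-91136516 on the plus strand. It had 49.1, 1.76, 1.03 and 1.73 FPKM in swimming replicates 1 to 4, against 35.0, 46.9, 0.791 and 0.870 FPKM in sedentary replicates 1 to 4. One swimming library and 2 sedentary libraries were above 34 FPKM, the remaining 5 were below 2 FPKM, and none lay between. The log2 fold change was -0.74 (SE 1.618, 95% interval -4.48 to 3.01, limma adjusted p = 0.929), and leaving out 1 library gave values from -1.90 (without swimming replicate 1) to 0.16 (without sedentary replicate 2), with -1.55 without sedentary replicate 4. This interval is the widest among the tested members.

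The high values came from Mybpc3-203, a model of 35 exons and 3834 coding bases. It had 48.7, 0, 0 and 1.73 FPKM in swimming replicates 1 to 4, against 35.0, 46.6, 0.791 and 0 FPKM in sedentary replicates 1 to 4. Mybpc3-202 (34 exons) stayed at or below 1.76 FPKM in all 8 libraries. Relative to Myh6 and Myh7 together, Mybpc3 was 19.4%, 0.228%, 0.249% and 0.377% in swimming hearts and 10.6%, 8.99%, 0.101% and 0.143% in sedentary hearts (log2 difference -0.45, exact permutation p = 1, and -1.32 without sedentary replicate 4).

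An assembled transcript had the mirror pattern. Among 409 assembled transcripts with a mean of at least 10 FPKM, TCONS_00000858 had the lowest correlation with Mybpc3 (Pearson r = -0.933 over 8 libraries on log2(FPKM + 0.5), a description of these libraries, which share their scaling with the gene). It had 4.70, 64.7, 65.2 and 79.7 FPKM in swimming replicates 1 to 4, against 0, 0, 93.5 and 82.9 FPKM in sedentary replicates 1 to 4. It was low in the 3 libraries where Mybpc3 was high and above 60 FPKM in the 5 where Mybpc3 was low. The sum of both was 53.8, 66.5, 66.2 and 81.4 FPKM in swimming hearts and 35.0, 46.9, 94.3 and 83.8 FPKM in sedentary hearts, with means of 67.0 ± 11.3 and 65.0 ± 28.5 FPKM in swimming and sedentary hearts (SD, n = 4 each). The table does not pair the assembled transcript with a gene, and whether it carries Mybpc3 reads was not tested.

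**Figure D4:**
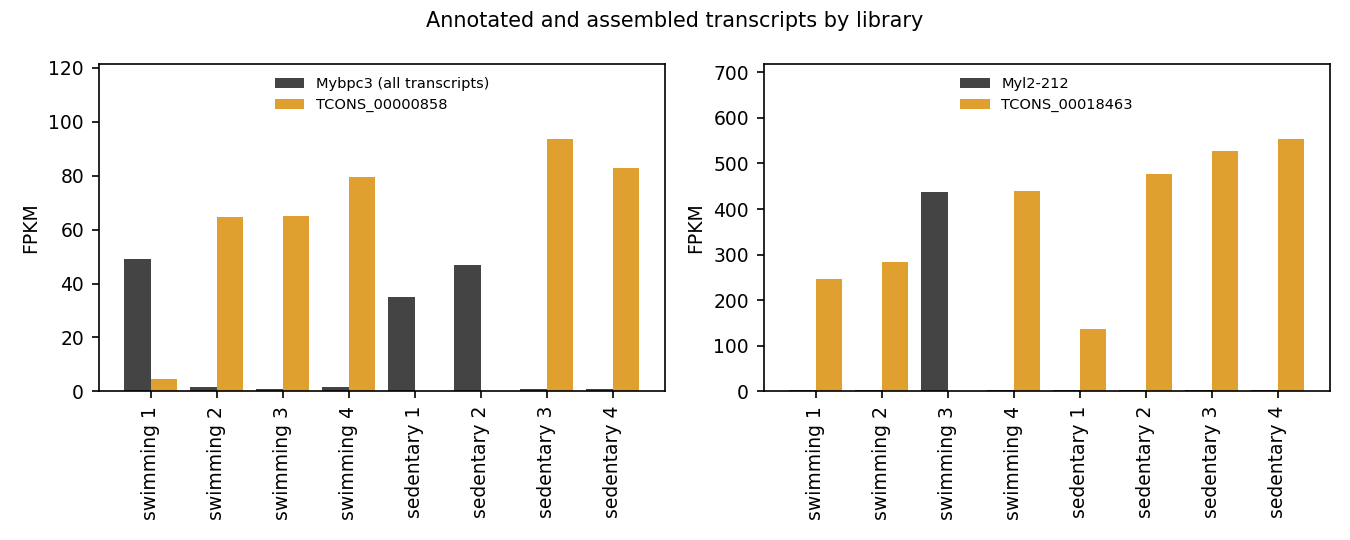
FPKM of Mybpc3 and of the assembled transcript TCONS_00000858 (left), and of Myl2-212 and the assembled transcript TCONS_00018463 (right), with 2 bars per library, swimming left and sedentary right. In the left panel one bar of each pair is high where the other is low, and in the right panel swimming replicate 3 alone has Myl2-212 and no TCONS_00018463.

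The same search gave an opposite partner for the abundant members too. For Myl2 it was TCONS_00018462 (r = -0.926), with 110, 36.2, 219 and 16.3 FPKM in swimming hearts and 120, 4.95, 7.16 and 4.69 FPKM in sedentary hearts. Added to Myl2 it gave 1865 ± 66.6 FPKM in swimming hearts and 1953 ± 59.0 FPKM in sedentary hearts (SD, n = 4 each), a smaller spread in each group than that of Myl2 alone. For Myh6 it was TCONS_00005798 (r = -0.884), with 193, 0, 15.2 and 0 FPKM in swimming hearts and 106, 0, 0 and 0 FPKM in sedentary hearts. It was high in swimming replicate 1 and sedentary replicate 1, the 2 libraries with the least Myh6. For Myl4 it was TCONS_00007815 (r = -0.951), with 14.2 and 13.9 FPKM in swimming replicates 2 and 3 and 44.9 to 55.9 FPKM in the other 6 libraries. The partners were picked as the lowest of 409 correlations, so a strong negative value was favoured by the choice. So was the smaller spread of Myl2 and TCONS_00018462 added together, and whether that transcript carries Myl2 reads was not tested.

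Mylk3, the cardiac myosin light chain kinase, phosphorylates the regulatory light chain Myl2 in cardiomyocytes. It lies at chr8:85324303-85386345 on the minus strand. It had 166.2, 121.9, 120.4 and 164.8 FPKM in swimming replicates 1 to 4, against 112.9, 129.9, 148.9 and 144.2 FPKM in sedentary replicates 1 to 4. Swimming replicates 1 and 4 were above all sedentary libraries, and the other 2 were within the sedentary range. The log2 fold change was 0.09 (SE 0.142, 95% interval -0.24 to 0.42, limma adjusted p = 0.897). Relative to its substrate gene, Mylk3 amounted to 9.97%, 6.40%, 7.26% and 8.91% of Myl2 in swimming hearts and 6.39%, 6.70%, 7.67% and 7.12% in sedentary hearts (log2 difference 0.21, exact permutation p = 0.257, adjusted p = 0.377).

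Mylk3-201 (13 exons, 2385 coding bases) carried 92.4%, 91.7%, 78.6% and 88.9% of the gene in swimming hearts and 91.7%, 91.5%, 87.0% and 94.2% in sedentary hearts (exact permutation p = 0.571, adjusted p = 0.943). The lowest share was in swimming replicate 3, where Mylk3-203, a model with another first exon (chr8:85380859-85380978, against chr8:85364689-85365324 in Mylk3-201), had 20.9 FPKM. Mylk3-203 had 0 to 10.3 FPKM in the other 7 libraries, and differed by 1.08 on the log2 scale (SE 1.028, limma adjusted p = 0.879). That difference was 0.15 without sedentary replicate 4, where the transcript was listed at 0, and 0.57 without swimming replicate 3.

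**Figure D5:**
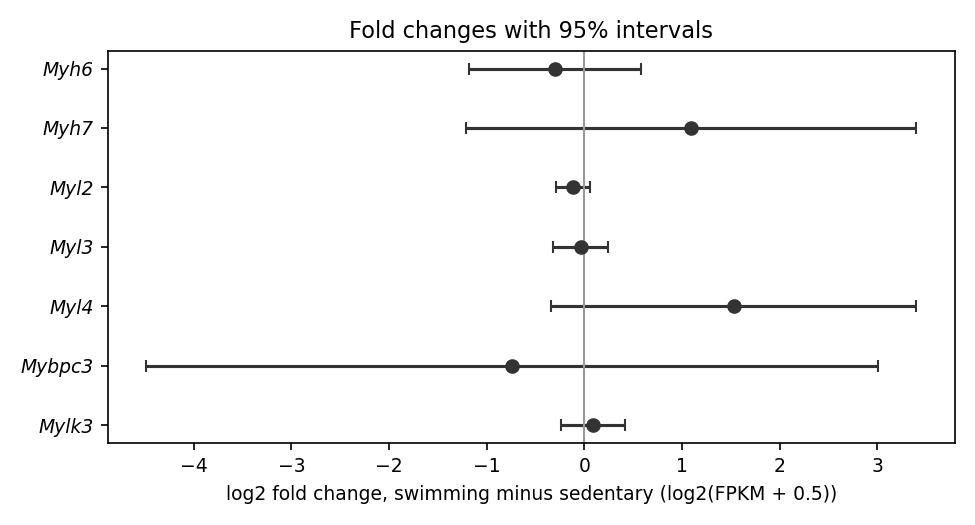
Log2 fold change of the 7 tested member genes, swimming minus sedentary, on log2(FPKM + 0.5), with bars for the 95% interval of the limma fit. All 7 intervals include 0, from the narrow one of Myl2 (-0.29 to 0.05) to that of Mybpc3 (-4.48 to 3.01).

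Other genes of the thick filament gave no call either. Of 20 such genes, all in the table, 15 were tested with limma and none passed the threshold, while 2 had a positive and 1 a negative fold change with an unadjusted p below 0.05 (in all 9 positive, 6 negative, median 0.09). Over all genes tested, 7.37% had an unadjusted p below 0.05 and 4.82% had groups clear of each other. Whether the counts in this list and the next ones depart from these shares was not tested. Smyd1, a muscle methyltransferase that helps myosin fold and assemble, had the lowest p of the list, with 101 ± 2.04 FPKM in swimming hearts and 119 ± 5.37 FPKM in sedentary hearts (SD, n = 4 each). All 4 swimming values were below all 4 sedentary values (log2 fold change -0.23, limma adjusted p = 0.434). Trim63, the ubiquitin ligase MuRF1 that marks myosin for breakdown, had 61.5 ± 0.939 FPKM in swimming hearts and 56.1 ± 2.21 FPKM in sedentary hearts, and its groups too were clear of each other (log2 fold change 0.13, limma adjusted p = 0.608).

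Other myosin II chains, which serve smooth muscle, skeletal muscle and non-muscle cells, gave 9 tested genes of 18 in the table. None passed the threshold in limma, 6 with a positive and 3 with a negative fold change (median 0.15). In each direction 1 had an unadjusted p below 0.05, beside 7.37% of all genes tested. Myl9, a regulatory light chain of smooth muscle and non-muscle cells, had 8.11 ± 0.736 FPKM in swimming hearts and 6.64 ± 1.16 FPKM in sedentary hearts (log2 fold change 0.28, limma adjusted p = 0.671). Myl1, the fast skeletal essential light chain, had 10.8 ± 1.61 FPKM in swimming hearts and 13.1 ± 1.23 FPKM in sedentary hearts (log2 fold change -0.28, limma adjusted p = 0.666). Myl9 is also a smooth muscle marker, and the smooth muscle list of 9 genes summed to 56.4 to 69.8 FPKM in swimming hearts and 60.9 to 76.3 FPKM in sedentary hearts. Of the 7 smooth muscle markers tested with limma, none passed the threshold, 5 with a positive and 2 with a negative fold change (median 0.09). Among them, 2 with a positive and 1 with a negative fold change had an unadjusted p below 0.05, beside 7.37% of all genes tested. The negative one was Acta2, smooth muscle actin, with 16.3 ± 4.23 FPKM in swimming hearts and 24.1 ± 4.93 FPKM in sedentary hearts (limma adjusted p = 0.657). The part of smooth muscle in the Myl9 values was not tested.

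Genes that add or remove light chain phosphate gave 15 tested of 16, with none past the threshold in limma (9 positive, 6 negative, median 0.04). An unadjusted p below 0.05 was found for 2, both with a positive fold change, beside 7.37% of all genes tested. Mylk, the kinase of smooth muscle and non-muscle light chains, had 3.78 ± 0.0143 FPKM in swimming hearts and 3.41 ± 0.122 FPKM in sedentary hearts (log2 fold change 0.13, limma adjusted p = 0.665). Its groups did not overlap, as in 4.82% of all genes tested. Dapk3, a kinase that can also phosphorylate myosin light chains, had 4.69 ± 0.732 FPKM in swimming hearts and 3.10 ± 1.12 FPKM in sedentary hearts (log2 fold change 0.57, limma adjusted p = 0.667). Ppp1cb, the catalytic subunit of myosin phosphatase, had 74.8 ± 2.94 FPKM in swimming hearts and 76.1 ± 4.23 FPKM in sedentary hearts (limma adjusted p = 0.935) and was named after its values were seen.

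Regulators of cardiac myosin genes gave 25 tested of 26 in the table, and again none passed the threshold in limma (11 positive, 14 negative, median -0.03). An unadjusted p below 0.05 was found for 1, with a positive fold change, beside 7.37% of all genes tested. Sp3, a transcription factor of the GC-box family, had 0.894 ± 0.173 FPKM in swimming hearts and 0.637 ± 0.103 FPKM in sedentary hearts (log2 fold change 0.29, limma adjusted p = 0.665). Mef2a, a MADS-box factor of muscle genes, had 6.14 ± 0.614 FPKM in swimming hearts and 9.08 ± 4.03 FPKM in sedentary hearts (log2 fold change -0.45, limma adjusted p = 0.721). Its sedentary mean was raised by replicate 4 with 14.7 FPKM, and without that library the fold change was -0.20.

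Genes whose values ran most closely with a member were looked up among 10133 named genes with a mean of at least 1 FPKM, as a description over 8 libraries. For Myh7 the closest were Utp11 (r = 0.972), Fkbp5 (r = 0.967) and Pigc (r = 0.961). Fkbp5, a co-chaperone of steroid receptors that glucocorticoids induce, had 0.138, 4.48, 10.9 and 3.90 FPKM in swimming replicates 1 to 4, against 5.82, 0.688, 0.269 and 0.299 FPKM in sedentary replicates 1 to 4. Like Myh7, it was high in swimming replicates 2 to 4 and in sedentary replicate 1, and low in the other 4 libraries. For Myh6 the closest were Snrpe (r = 0.923), Ndufs3 (r = 0.918) and Eny2 (r = 0.918).

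For Myl4 the closest was Gbp6 (r = 0.981), an interferon-inducible GTPase gene with near-identical relatives, so its values are uncertain. It had 5.14 and 3.81 FPKM in swimming replicates 2 and 3 and at most 0.00722 FPKM in the other 6 libraries. Med13l (r = 0.957) and Pfdn4 (r = 0.947) came next. Mylk3 ran with Cdc42bpb (r = 0.980) and Lepr (r = 0.975). Myl2 ran with Ythdf3 (r = 0.959), Myl3 with Ift46 (r = 0.946) and Mybpc3 with Mtmr2 (r = 0.950). With 10133 candidates and 8 points, values of this size were picked as the highest and carry no test.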

How the data were processed

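The authors deposited 1 table of FPKM per transcript for 8 heart RNA libraries, 4 swimming and 4 sedentary, per the file headers. The build was mm10 and the tools named were HISAT2, Salmon 0.8.2, STAR 2.5.1a, featureCounts 1.4.6-p5 and Subread, per the submitters' processing notes. The tool behind the FPKM values and the use of strand are not given in the sources used here, so overlapping and antisense genes can share reads. Low values gave whole-read steps for too few genes (17.9% to 26.1% of low ratios per pair of libraries, within a log2 window of 0.02) to recover counts, and no count test was run.

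GENCODE M21 named 45676 of 45742 Ensembl transcripts. The 5427 assembled transcripts, which the table pairs with no gene, held 11.3% to 12.5% of a library's FPKM and stay out of gene sums. Genes and transcripts with a mean of at least 0.5 FPKM were tested on log2(FPKM + 0.5), which understates changes of low genes, with limma 3.58.1 in R 4.3.3 (eBayes with trend, two-sided, Benjamini-Hochberg over all tested, threshold 0.05). Ratios and shares had exact two-sided permutation tests, in which a single ratio or share could not pass the threshold after adjustment, whatever its size. The fit was tested on simulated data. Alternatives were the pseudocount, the filter, 3 scalings, a replicate block, eBayes without trend and each library left out; complete transcripts only was added after seeing the data.

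Named were all members and their transcripts of at least 0.5 FPKM, up to 4 genes per list with the lowest p, all atrial and skeletal markers, and the 3 genes and 3 opposite assembled transcripts nearest each member by correlation. Of the genes so chosen, 2 are not reported here. The members, lists and rules were chosen with earlier results of these data known. Coding sequences were cut from the GENCODE M21 transcript sequences, and their mm10 positions were taken from the GENCODE M21 models.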

Additional observations from a re-analysis of the deposited data

Results flagged for a closer look

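Among 82 groups of 4 libraries examined over the members and their transcripts, 9 held a library far from the other 3 by Dixon's test (gap over range above 0.829). Chance flags about 1 in 20 groups if values are normally distributed. The flagged values were FPKM without logs, for which this was not checked, and a gene and its transcripts are not independent. The number of flags therefore cannot be set against that rate.

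Sedentary replicate 1 stood apart in Myh7 with 20.3 FPKM, against 1.23 to 4.16 FPKM in the other sedentary libraries, in Myh7-201 with 15.2 FPKM, against 0.0191 to 2.58 FPKM, and in Myh7-205 with 2.70 FPKM, against 0 to 0.426 FPKM. Swimming replicate 4 stood apart in Myh7b with 2.61 FPKM, against 0.0507 to 0.0830 FPKM in the other swimming libraries. Swimming replicate 1 stood apart in Mybpc3 with 49.1 FPKM, against 1.03 to 1.76 FPKM, and in Mybpc3-203 with 48.7 FPKM, against 0 to 1.73 FPKM. Swimming replicate 3 stood apart in Myl2-212 with 437.5 FPKM, against 2.75 to 3.64 FPKM in the other swimming libraries. Sedentary replicate 3 stood apart in Myh6-202 with 83.5 FPKM, against 16.5 to 20.7 FPKM in the other sedentary libraries, and sedentary replicate 2 in Myl2-202 with 169.9 FPKM, against 124.3 to 131.3 FPKM. No cause was tested for any of these.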

How the results depend on the processing

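Over 44 fold changes, ratios and shares, 703 recomputed values were compared with the reported ones. Of these, 683 kept their direction and their side of the threshold, 20 had the other direction and 0 crossed the threshold. A single ratio or share could not cross it alone, since its smallest possible p lies above the threshold once adjusted. The other direction came with scaling to an equal FPKM total for Myl3 (0.02) and quantile normalization for Myl2-203 (0.11), and the others with a library left out. With each library left out in turn, the log2 fold change ranged from -0.13 to 0.05 for Myl3, from -1.90 to 0.16 for Mybpc3, from -0.26 to 0.00 for Myl2-203 and from -0.01 to 2.34 for Myl2-212. The log2 ratio of Mybpc3 to Myh6 plus Myh7 ranged from -1.88 to 0.53. The difference in leading transcript share, in percentage points, ranged from -10.2 to 2.01 for Myh6, from -13.5 to 18.7 for Myh7 and from -0.0964 to 0.0983 for Myl3.

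Genes called numbered 2, against 1 with a pseudocount of 0.1, 1 with quantile normalization and 0 to 5 with a library left out (0 without swimming replicate 2, 5 without swimming replicate 4). Transcripts called numbered 12, against 7 with a filter of 1 FPKM, 6 with an equal FPKM total and 7 to 25 with a library left out (7 without sedentary replicate 1, 25 without swimming replicate 3). The cause was not tested. With the replicate number as a block, 0 genes and 0 transcripts were called, and the Myh7 to Myh6 ratio differed by 1.395 with an adjusted p of 0.562 (exact sign-flip test, smallest possible p 0.125). Same-numbered libraries did not deviate together over all genes tested (r from -0.05 to 0.02). The labels do not say that the numbers pair samples, and such correlations cannot show a pairing that affects few genes. The median log2 fold change of all genes was 0.03 as deposited and at most 0.08 under the scalings tried. Absolute depth is unknown and limits what can be said of Myh7b, Myl7 and Myl4.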
